A study of Rattus norvegicus with 6 samples.

Results

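The genes described here are 10 transcription factor genes of the AP-1 group and its relatives, taken by symbol from the 22250 genes of the deposited expression table: the Fos family (Fos, Fosb, Fosl1 and Fosl2), the Jun family (Jun, Junb and Jund), Atf3, Batf and the small Maf factor Maff. They were proposed with the read counts of the aged and young donor hearts in view, so their differences by donor age are given as a description, without a test. RNA-Seq was performed on polyadenylated RNA of left ventricular myocardium from 6 transplanted hearts of wild-type Sprague-Dawley rats, collected on postoperative day 1 after heterotopic transplantation. The young donors (10 weeks old) gave the hearts labelled WT3, WT13 and WT15, and the aged donors (1 year old) gave OT3, OT4 and OT7. Both groups had been arrested and stored in cold preservation solution and were placed in young recipients, and only male rats were used, so donor age was the labelled difference between the groups. No heart that was not transplanted entered this comparison. Each heart is a separate animal, and numbers name animals within a group only. All 10 genes passed the filter on low counts, Batf only with the reads of aged donor hearts.

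AP-1 is a dimer of 2 proteins that each carry a basic region, which contacts DNA, and a leucine zipper, which holds the pair together. Jun proteins can pair with themselves or with a Fos protein, whereas Fos proteins need a Jun partner. Several of the genes are immediate early genes, which are transcribed within minutes of mitogen or stress signals carried by MAP kinases, and in the heart they are known to respond to stretch, ischemia and reperfusion. Small Maf proteins have the zipper but no activation domain, and they pair with cap'n'collar factors such as NRF2 or with BACH repressors on antioxidant response elements.

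The hearts were sequenced to a similar depth, from 21457509 to 24560869 counted reads, and levels are given as CPM, the reads of a gene per 1000000 reads of its library after scaling by TMM (trimmed mean of M values). Of the 13784 genes, 1815 were past the limits used in the study (an unadjusted p under 0.05 together with a fold change over 1.5 or under 0.67) with the higher level in aged donor hearts, and 2621 were past them with the lower level there, 32.2% of the genes in all. Scaled by library totals alone, the split was 3147 higher and 1441 lower. In edgeR, 0 genes had a Benjamini-Hochberg adjusted p under 0.05, whereas 4731 genes (34.3%) had an unadjusted p under 0.05. DESeq2 called 3592 genes (26.1%) at the adjusted threshold. The hearts differed widely in the RNA of their cell types. The summed level of the 9 cardiomyocyte markers found in the table was 86855 and 96572 CPM in WT3 and WT13 but 10872 CPM in WT15, and it was 564, 6256 and 4655 CPM in OT3, OT4 and OT7. Of the 9 markers, 5 were past the limits and lower in aged donor hearts, and in OT3 Myl2 and Ryr2, which encode the ventricular myosin light chain and the calcium release channel, were at 0.887 and 2.73 CPM. Ventricular muscle RNA was therefore scarce in the library of OT3, and WT15 stood apart from the other young donor hearts. In bulk tissue, fewer cells of a type and less RNA per cell cannot be told apart.

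Markers of neutrophils and of monocytes and macrophages moved the other way. The summed level of the 10 neutrophil markers was 5.69 and 6.80 CPM in WT3 and WT13, 127 CPM in WT15, and 1285, 307 and 656 CPM in OT3, OT4 and OT7. All 8 of them that passed the filter were past the limits and higher in aged donor hearts, where 13.2% of all genes tested were higher and 19.0% lower. Camp and Elane had no read in WT3 and WT13 and could pass the filter only with the reads of aged donor hearts. The same held for Retnlg, with 0 and 3 reads in WT3 and WT13, and for Mmp8 and Cxcr2, with 8 and 7 each. It also held for S100a8, with 9 reads in WT3. The count of 8 therefore follows in large part from the filter. No marker was at 0 in every heart. Monocyte and macrophage markers summed to 355, 330 and 2303 CPM in young and to 7014, 4129 and 3635 CPM in aged donor hearts, with 4 of 9 past the limits and higher. For T and NK cells, 2 of 7 markers tested were higher and the sums ran from 33.8 to 81.7 CPM in young and from 97.3 to 149 CPM in aged donor hearts. Endothelial markers, with sums from 1383 to 2067 CPM in young and from 1266 to 1844 CPM in aged donor hearts, had 1 of 9 higher and 1 lower. Fibroblast markers had 4 of 9 lower, with sums from 6781 to 8517 CPM against 2448 to 4674 CPM, and red blood cell markers had 1 of 5 lower, with sums from 729 to 5781 CPM against 246 to 3097 CPM. AP-1 genes are expressed in many of these cell types, and the part of this shift in the differences described for them was not tested.

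Promoter sequence from RefSeq (GRCr8 build, 250 bases before to 50 bases after the start site) was matched by symbol for 7 of the 10 genes, Fosb, Fosl1, Fosl2, Junb, Jund, Batf and Maff. The full cyclic AMP response element TGACGTCA, a site of 8 bases bound by dimers of the ATF, CREB and Jun families, was present in 2 of the 7, Maff and Jund, and in 1.83% of the 33469 promoters of the same length. The shorter stretch TGACG, searched on both strands and contained in the full element, was present in 5 of the 7 (Fosl1, Junb, Jund, Batf and Maff) and in 21.2% of all promoters. The AP-1 site TGANTCA, searched on both strands, was in none of the 7 windows and in 7.33% of all promoters. Likewise, 0 of the 7 windows and 1.64% of all promoters held a CArG box, the site of serum response factor. A binding site of STAT factors, TTCNNNGAA, was in 2 of the 7 (Batf and Maff) and in 8.87% of all promoters. These matches describe the letters only. The 4 stretches below, each of 30 bases on the strand of the gene, show the element in the gene with the most even difference between the groups (Maff), in the gene with the smallest difference (Jund), and the shorter stretch in a pair of genes with large differences (Fosl1 and Junb). Capitals mark the match.
Maff, 51 bases before the start site (GRCr8 chr7:112792725-112792754, plus strand): cgctggggcggTGACGTCActgcatgactg
Jund, 221 bases before the start site (GRCr8 chr16:18769974-18770003, minus strand): ccccacccccaTGACGTCAacccacaatgc
Fosl1, 84 bases before the start site (GRCr8 chr1:212183789-212183818, plus strand): tatgggcagctgCGTCAgagggggcgtggc
Junb, 155 bases before the start site (GRCr8 chr19:40080959-40080988, plus strand): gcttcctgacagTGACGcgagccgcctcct

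As a group, the genes stood higher in aged donor hearts. All 10 log2 fold changes were positive, in each of the 12 alternative settings too, and their median was 1.96, against 0.016 over all genes tested. Of the 10, 6 were past the limits of the study and higher (Fos, Fosl1, Fosl2, Junb, Batf and Maff), 0 were past them and lower, while 13.2% of all genes tested were past them and higher and 19.0% lower. The 3 aged donor hearts lay above the 3 young donor hearts in 8 of the 10, where 21.0% of all genes tested did so and 41.6% did not overlap in either direction. Since the genes were chosen on this comparison, and Batf passed the filter only with the aged donor hearts, nothing is read from these shares. In edgeR, 0 of the 10 had an adjusted p under 0.05 and 6 had an unadjusted p under 0.05, whereas DESeq2 gave 6 an adjusted p under 0.05, where it called 9.72% of all genes as higher. Fosl1, Fosl2, Junb and Maff were past the limits in all 13 settings, the main one included.

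**Figure D1:**
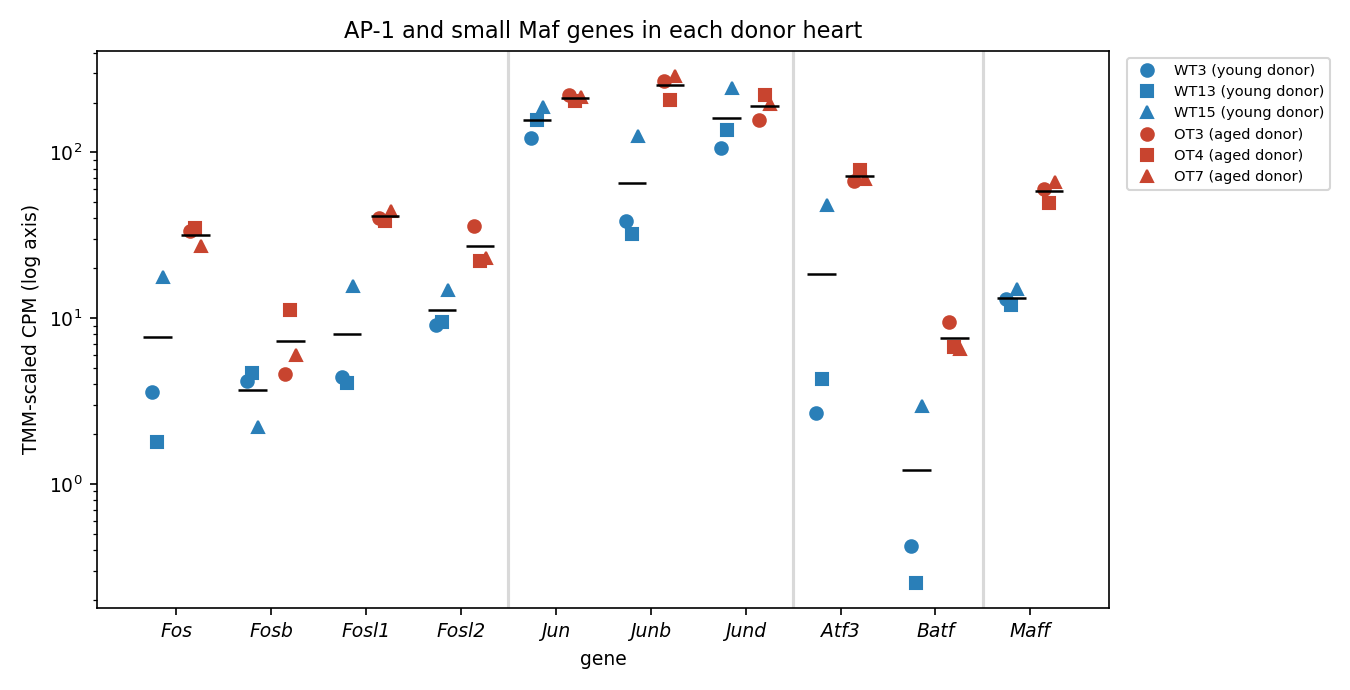
TMM-scaled CPM of the 10 genes in each heart on a log axis, with young donor hearts in blue, aged donor hearts in red and a black bar for the mean of each group of 3. The groups overlap for Fosb and Jund only, and WT15 is the highest young donor heart in 9 of the 10 genes.

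Among the Fos family, Fos and Fosl1 differed most. Fos (ENSRNOG00000008015, chr6:109300433-109303299 on the plus strand of Rnor_6.0, the build named in the submitters' processing notes) encodes the classic short-lived partner of Jun. It was read at 3.57, 1.78 and 17.7 CPM in WT3, WT13 and WT15 and at 33.7, 34.8 and 27.1 CPM in OT3, OT4 and OT7. The groups did not overlap, but WT15 was 6.61 times the mean of the other young donor hearts. The log2 fold change was 2.04 (standard error, SE, 0.811), and with single hearts left out in turn it ran from 1.58 to 3.61. Without WT3, WT13, OT3, OT4 or OT7, Fos was no longer past the limits. Fosl1 (ENSRNOG00000020552, chr1:220826560-220835066, plus strand) encodes FRA-1, a Fos protein without the C-terminal activation domain. Its level was 4.42, 4.07 and 15.7 CPM in the young group and 40.5, 38.8 and 44.3 CPM in aged donor hearts. The lowest aged donor heart was 2.47 times the highest young donor heart, and the aged donor hearts were close to each other, at 41.2 ± 2.78 CPM (SD, n = 3) against 8.06 ± 6.61 CPM (SD, n = 3) in young donor hearts. Its log2 fold change was 2.35 (SE 0.560), a 5.08-fold difference.

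The other Fos genes differed less. Fosl2 (ENSRNOG00000052357, chr6:25598936-25616995, minus strand) encodes FRA-2, which is more persistent than Fos after a stimulus. It stood at 9.14, 9.54 and 14.8 CPM in the young group and at 36.2, 22.1 and 23.0 CPM in aged donor hearts, so that the groups did not overlap and OT3 was the highest. Its log2 fold change was 1.27 (SE 0.309). The table gives Fosl2 a length of 744 bases, the shortest of the 10 genes, and its level per length given below rests on that value. Fosb (ENSRNOG00000046667, chr1:80214494-80221710, minus strand) had the fewest reads of the Fos family in aged donor hearts, with counts of 69, 73 and 53 in the young group and 141, 295 and 156 in aged donor hearts. In CPM this was 4.17, 4.64 and 2.19 against 4.63, 11.2 and 5.98. OT3 lay just below WT13, and WT15 was the lowest heart of all, the only one of the 10 genes in which WT15 was not the highest young donor heart. Its log2 fold change of 0.99 (SE 0.458) was 0.54 without OT4.

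In the Jun family a large difference in Junb stood beside small ones in Jun and Jund. Junb (ENSRNOG00000042838, chr19:26092974-26094756, minus strand), whose protein is a weaker activator than Jun and can oppose it, was at 38.4, 32.4 and 125 CPM in the young group and at 271, 207 and 289 CPM in aged donor hearts. The groups did not overlap, and WT15 lay between the other young donor hearts and the aged ones. The means were 65.2 ± 51.7 and 255 ± 43.1 CPM (SD, n = 3 each), and the log2 fold change was 1.97 (SE 0.559). Jun (ENSRNOG00000026293, chr5:114011189-114014277, minus strand), the founding member of the family and the main substrate of the JNK kinases, was at 123, 156 and 188 CPM in the young group and at 222, 204 and 216 CPM in aged donor hearts. Although the groups did not overlap, the lowest aged donor heart was only 1.08 times the highest young donor heart, and the log2 fold change was 0.46 (SE 0.222), under the 1.5-fold limit. Jund (ENSRNOG00000019568, chr16:20485029-20486707, minus strand) encodes the Jun protein that is abundant in resting cells. It was at 107, 137 and 244 CPM in the young group and at 156, 221 and 195 CPM in aged donor hearts. The highest heart of all for Jund was the young donor heart WT15, and the groups overlapped. Its log2 fold change of 0.23 (SE 0.350) was 0.002 without WT3 and 0.69 without WT15. Scaled by library totals alone, which moved the median of all genes to 0.46, Jun stood 0.42 and Jund 0.13 above that median.

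Atf3 and Batf were low in WT3 and WT13. Atf3 (ENSRNOG00000003745, chr13:109817728-109849632, minus strand) encodes a stress-induced repressor that pairs with Jun proteins and acts downstream of the integrated stress response. It was at 2.66 and 4.32 CPM in WT3 and WT13, at 48.3 CPM in WT15, and at 67.0, 78.8 and 69.2 CPM in OT3, OT4 and OT7. The aged donor hearts all lay above the young ones, yet WT15 was 13.8 times the mean of the other young donor hearts, the widest such ratio of the 10 genes. The log2 fold change was 1.95 (SE 1.06) with all hearts, not past the limits, and 4.40 (SE 0.268) without WT15, past them. Batf (ENSRNOG00000008588, chr6:109562587-109584545, plus strand) encodes a small factor of lymphoid and myeloid cells that takes the place of Fos beside Jun proteins and IRF factors. It had 7, 4 and 72 reads in the young group and 289, 176 and 171 reads in aged donor hearts, which is 0.423, 0.254 and 2.97 CPM against 9.49, 6.67 and 6.55 CPM. Its log2 fold change of 2.59 (SE 0.879) was the largest of the 10, and it rests on few reads in WT3 and WT13. Batf could not have passed the filter without the aged donor hearts. Batf was no longer past the limits without WT3, OT3 or OT4, and its log2 fold change was 4.49 without WT15.

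Fos and Batf lie in the same stretch of chromosome 6. From the start of Fos to the end of Batf, 284113 bases, the table lists 3 genes, and the one between them is Jdp2 (chr6:109466060-109505161, plus strand), which encodes a further Jun-binding repressor. Jdp2 was at 11.7, 9.54 and 23.2 CPM in the young group and at 48.2, 34.4 and 35.6 CPM in aged donor hearts. Jdp2 was past the limits and higher in the aged group, where 13.2% of all genes tested were. Its log2 fold change was 1.41 (SE 0.373, adjusted p = 0.0916 from edgeR with Benjamini-Hochberg adjustment). Fos and Batf, which bound the stretch, were chosen on this comparison, so nothing about the stretch is read from their differences.

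Maff (ENSRNOG00000012886, chr7:120580743-120592095, plus strand), the stress-inducible small Maf gene, was the one with the least spread within the young group relative to its difference. It was at 13.1, 12.0 and 14.9 CPM in WT3, WT13 and WT15 and at 60.4, 49.4 and 66.6 CPM in OT3, OT4 and OT7. The lowest aged donor heart was 3.32 times the highest young donor heart, the widest gap of the 10 genes. The means were 13.3 ± 1.44 and 58.8 ± 8.70 CPM (SD, n = 3 each), and the log2 fold change of 2.14 (SE 0.192) ran only from 2.05 to 2.26 when each heart was left out in turn. WT15 was 1.18 times the mean of WT3 and WT13 for Maff, against 13.8 times for Atf3, 8.77 for Batf, 6.61 for Fos and 3.52 for Junb.

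**Figure D2:**
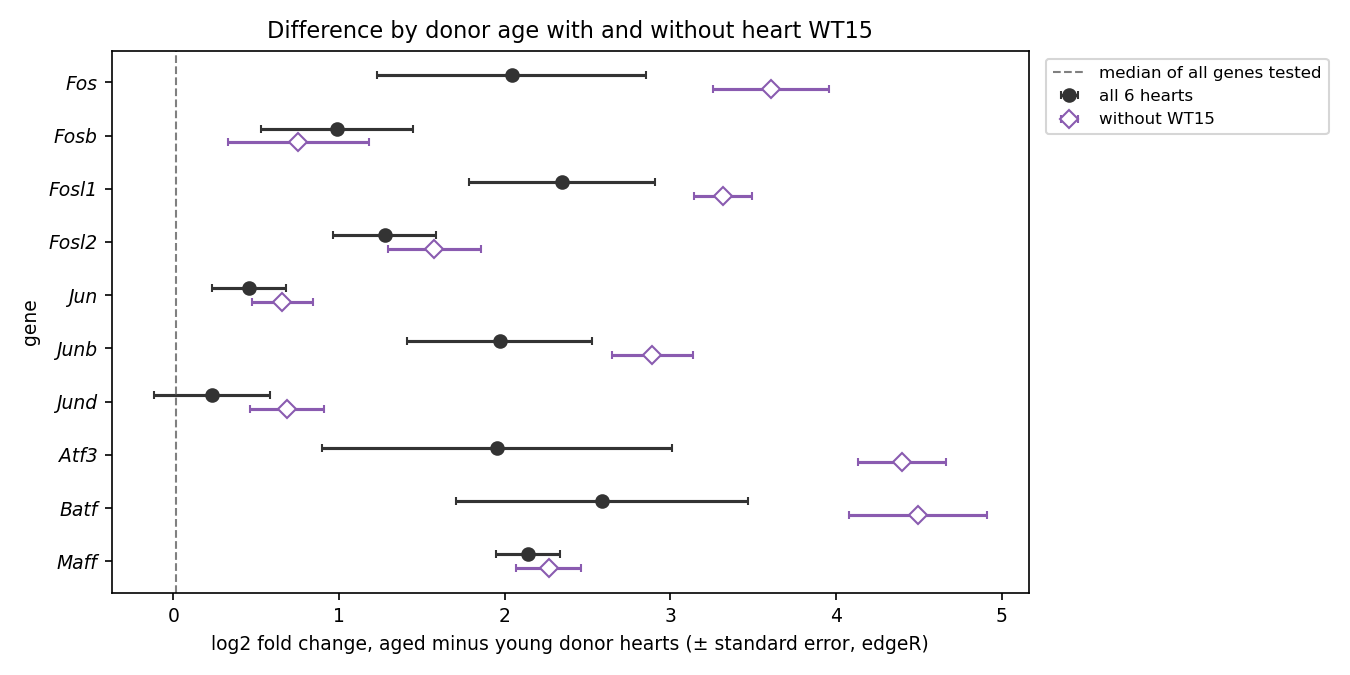
Log2 fold change of aged minus young donor hearts for the 10 genes with its standard error from edgeR, with all 6 hearts (filled circles) and without WT15 (open diamonds). The dashed line is the median of all genes tested, 0.016, and leaving out WT15 moved Atf3 from 1.95 to 4.40 but Maff only from 2.14 to 2.26.

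The place of WT15 between the groups was put on 1 scale by setting the mean log2 CPM of WT3 and WT13 to 0% and that of the aged donor hearts to 100%. On this scale WT15 lay at 87.1% for Atf3, 77.0% for Fos, 70.9% for Jun, 70.6% for Batf, 64.1% for Junb, 57.6% for Fosl1, 44.6% for Fosl2 and 11.0% for Maff. For the genes whose groups overlapped it lay outside both groups' means, at 157% for Jund, above the aged mean, and at -163% for Fosb, below the mean of WT3 and WT13. Over the genes past the limits and higher with a read in every heart, 1759 in all, WT15 lay at a median of 60.0%, with the middle 50% of genes from 41.2% to 71.4%, and 9.10% of them lay below the value of Maff. WT15 was thus close to the aged donor hearts for Atf3 and close to the young ones for Maff. Without WT15, 9 of the 10 genes were past the limits and higher, where 26.9% of all genes were, and 9 had an adjusted p under 0.05 in edgeR, where 48.3% of all genes did. Leaving a heart out because of its values is no independent comparison, and these counts describe how far the spread of the young group rests on WT15.

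Levels were compared between genes as CPM per kilobase of the gene length in the table. In young donor hearts Jund was the highest, at 96.7 ± 43.0 CPM per kilobase (SD, n = 3), above Jun at 50.4 ± 10.6 and Junb at 36.6 ± 29.0. The ranges of Jun and Junb overlapped, whereas Jund lay above Jun in every young donor heart. Fosl2 followed at 15.0 ± 4.27 and lay above Maff, the next in order, without overlap. Its range overlapped that of Atf3, which reached 16.6 in WT15, but Fosl2 lay above Atf3 in every young donor heart. From Maff through Atf3, Fosl1, Fos and Batf to Fosb, 6.87 down to 0.981 CPM per kilobase, the ranges of neighbours overlapped. Within hearts, Fos lay above Batf in WT3, WT13 and WT15 (2.25, 1.12 and 11.1 against 0.422, 0.254 and 2.96). The other neighbours in this stretch changed order between hearts. In aged donor hearts Junb came first, at 143 ± 24.2 CPM per kilobase, although its range overlapped that of Jund at 114 ± 19.6. Jun followed at 69.3 ± 3.08 and lay apart from both neighbours. Fosl2 at 36.4 ± 10.6, Maff at 30.3 ± 4.48, Fosl1 at 24.8 ± 1.67 and Atf3 at 24.6 ± 2.16 came next. Neighbours among these overlapped in range, although Maff lay above Fosl1 within every aged donor heart. Fos at 20.1 ± 2.63, Batf at 7.55 ± 1.66 and Fosb at 1.94 ± 0.925 were each set apart from their neighbours.

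The share of each gene in the sum of the 10 does not depend on how libraries are scaled. The sum itself was 151, 176 and 345 CPM per kilobase in the young group and 476, 451 and 489 in aged donor hearts. Jund made up 42.0%, 46.3% and 42.2% of it in WT3, WT13 and WT15 but 19.5%, 29.2% and 23.8% in OT3, OT4 and OT7. The groups did not overlap in this share, although they overlapped in the level of Jund, and here WT15 was like the other young donor hearts. The sum is of genes chosen on this comparison, so a gene that differed little takes a smaller share where the sum is larger. Junb made up 14.3%, 10.4% and 20.3% in the young group and 31.9%, 25.7% and 33.1% in aged donor hearts, and Jun 26.3%, 28.8% and 17.7% against 15.1%, 14.6% and 14.3%. The Jun family together took 82.7% ± 2.64 (SD, n = 3) of the sum in young and 69.1% ± 2.36 (SD, n = 3) in aged donor hearts. The share of Fosl1 was 1.76%, 1.39% and 2.74% against 5.12%, 5.18% and 5.44%. Within the Fos family, Fosl2 held 67.1%, 72.7% and 48.5% of the level in the young group and 50.9%, 38.1% and 40.5% in aged donor hearts, so the groups overlapped, while the share of Fosl1 was 14.5%, 13.9% and 23.0% against 25.5%, 30.0% and 35.0% and the groups did not.

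**Figure D3:**
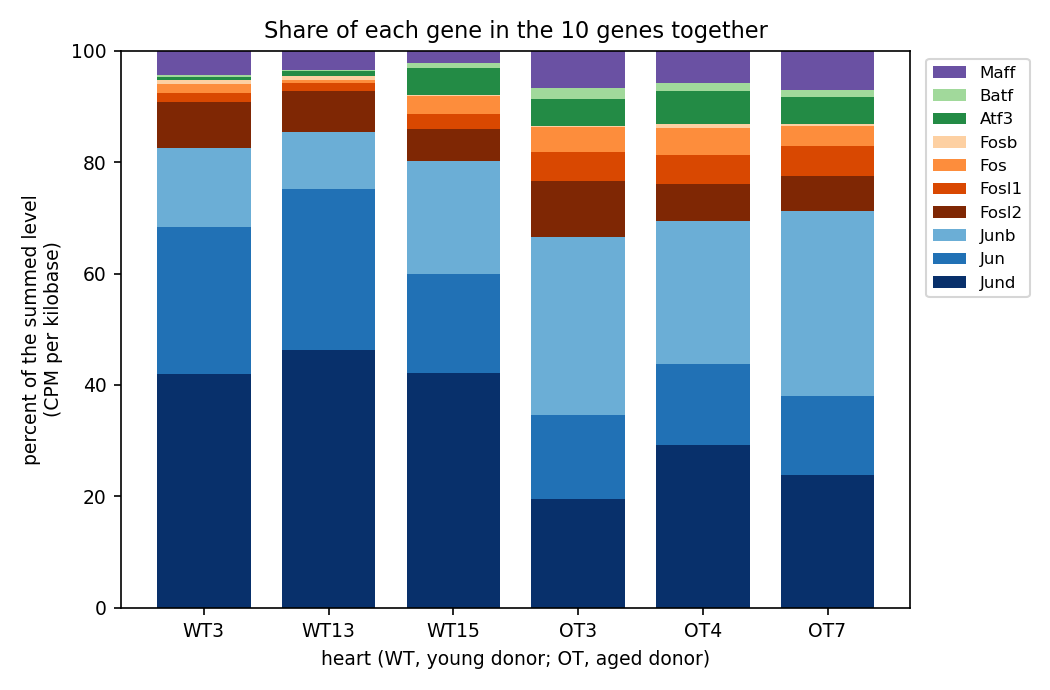
Share of each gene in the summed level of the 10 genes (CPM per kilobase, in percent) in each heart, with young donor hearts (WT) on the left and aged donor hearts (OT) on the right. Jund lies between 42.0% and 46.3% in the young group and between 19.5% and 29.2% in aged donor hearts, and Junb between 10.4% and 20.3% and between 25.7% and 33.1%.

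Profiles over the 6 hearts were compared by the root mean square difference of log2 CPM after each gene was centred on its own mean. Among the 10 genes, Fosl1 and Junb were the most alike, with a difference of 0.228, followed by Jun and Jund with 0.278 and Fos and Batf with 0.335, and Fosb and Atf3 were the least alike, with 1.95. Over the 12945 other genes with a mean of at least 1 CPM, the nearest profile was that of Gpalpp1 for Jun (0.044), Clic4 for Jund (0.0759), Cd302 for Fosl2 (0.0781), Map3k6 for Junb (0.0791), Otulinl for Batf (0.0941), Asns for Fosl1 (0.126), Sh3bp2 for Fos (0.157), Egr2 for Atf3 (0.166), LOC100362027 for Fosb (0.179) and Adamts1 for Maff (0.183). The median difference over all these genes was between 0.513 for Jun and 2.02 for Atf3. Adamts1, which encodes a secreted metalloproteinase, was at 56.6, 65.9 and 97.9 CPM in the young group and at 337, 278 and 388 CPM in aged donor hearts. WT15 lay above WT3 and WT13 but nearer to them than to the aged donor hearts. Egr2, an immediate early zinc finger gene, was at 0.544, 0.954 and 11.8 CPM against 15.5, 15.8 and 20.4 CPM, with WT15 close to the aged group as for Atf3. The nearest gene stayed the same for 9 of the 10 with a prior count of 0.5 in place of 2, but for only 1 of the 10, Jun, when profiles were also divided by their spread.

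The proteins that pair or compete with these factors were followed in a list of 17 other basic leucine zipper genes, all of which passed the filter. Of these, 6 were past the limits and higher in aged donor hearts, 1 was lower and 10 were not past them, where 13.2% of all genes tested were higher and 19.0% lower. The median log2 fold change of the list was 0.47, against 0.016 over all genes. Nfe2, the cap'n'collar partner of small Maf proteins in blood cells, differed most. It was at 2.06, 1.46 and 2.97 CPM in the young group and at 27.3, 8.64 and 14.1 CPM in aged donor hearts, which is a log2 fold change of 2.94 (SE 0.522, adjusted p = 0.0916 from edgeR). The order of the aged donor hearts, OT3 above OT7 above OT4, was that of the neutrophil marker sum, whose part in this difference was not tested. Bach1, the repressor that competes with NRF2 for small Maf partners, was at 17.7, 17.3 and 19.4 CPM against 44.1, 27.5 and 36.0 CPM and past the limits, and WT15 was close to the other young donor hearts. Bach2, the lymphoid relative of Bach1, was past the limits and lower, at 6.65, 4.64 and 3.02 against 2.04, 1.59 and 1.53 CPM. Batf3 was past the limits and higher, with 1.03, 1.46 and 1.94 against 3.32, 4.63 and 2.45 CPM.

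The other small Maf genes differed less than Maff. Mafg was at 23.9, 27.1 and 34.7 CPM in the young group and at 48.0, 40.9 and 50.8 CPM in aged donor hearts, with a log2 fold change of 0.70 (SE 0.201) that was past the limits. Mafk, at 75.9, 82.8 and 71.9 against 54.5, 106 and 123 CPM, had overlapping groups and a log2 fold change of 0.30 (SE 0.314). Nfe2l2, which encodes NRF2, was at 88.4, 90.8 and 97.1 CPM against 143, 99.7 and 139 CPM, and its log2 fold change of 0.47 (SE 0.202) was not past the limits. Whether these differences differ from that of Maff was not tested.

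Upstream of AP-1, the MAP kinases, their activating kinases and the serum response factors were called about as often as genes in general. Of 23 genes found in the table, 21 were tested, 2 were higher, 5 were lower and 14 were not past the limits, near the 13.2% higher and 19.0% lower over all genes tested, and the median log2 fold change was -0.14. Mapk8, which encodes JNK1, was at 17.1, 17.0 and 14.1 CPM in the young group and at 15.8, 16.5 and 13.9 CPM in aged donor hearts, and Srf at 170, 206 and 128 against 136, 195 and 145 CPM. Map3k8, a kinase of the ERK pathway in myeloid cells, was higher, at 8.53, 8.52 and 11.0 against 33.1, 15.6 and 25.9 CPM. Map2k6, an activator of p38, was lower, at 17.4, 13.9 and 5.99 against 1.97, 2.20 and 2.38 CPM, as were Map3k5, with 86.9, 87.6 and 30.5 against 30.0, 22.9 and 26.3 CPM, and Map3k7, which had 9.44 CPM in WT3 but 1.78 and 1.49 CPM in WT13 and WT15 and 0.796 to 1.15 CPM in aged donor hearts. The others past the limits, named after their values were seen, were Mapk11 (log2 fold change 0.79) and, among the lower ones, Mapk9 (-0.65) and Elk1 (-1.30). Map2k6, Map3k5, Mapk9 and Elk1 were also lower in WT15 than in the other young donor hearts, as the cardiomyocyte marker sum was, and the part of that shift was not tested.

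Of the 10 phosphatases that switch MAP kinases off, 3 were past the limits and higher, 0 were lower and 7 were not past them, with a median log2 fold change of 0.19. Over all genes tested, 13.2% were higher and 19.0% lower. The share of the list that was not past the limits was close to that of genes in general, but more of it was higher and less of it lower. Dusp6, the feedback inhibitor of ERK, was at 17.0, 19.9 and 47.2 CPM in the young group and at 140, 115 and 99.8 CPM in aged donor hearts, which is a log2 fold change of 2.07 (SE 0.430, adjusted p = 0.0916 from edgeR). Dusp2 was at 2.54, 2.29 and 3.68 against 9.98, 12.4 and 6.48 CPM, and Dusp9, named after its values were seen, stayed under 2 CPM in every heart. Dusp9 had 2, 0 and 10 reads in the young group and could not have passed the filter without the aged donor hearts. Dusp1, itself an immediate early gene, was at 131, 124 and 52.1 CPM in the young group and at 146, 70.6 and 96.2 CPM in aged donor hearts. Its groups overlapped and its log2 fold change was 0.026 (SE 0.428).

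Genes with known AP-1 sites showed large differences with a wide spread in the young group. Of 15 such genes, 12 were tested, 2 were past the limits and higher, 1 was lower and 9 were not past them, although the median log2 fold change was 1.87. The share called higher was near the 13.2% over all genes tested, and the share called lower was below the 19.0%. The aged donor hearts lay above the young ones in 5 of the 12, where 21.0% of all genes tested did so. Plaur, the urokinase receptor, was at 3.99, 4.32 and 29.7 CPM in the young group and at 97.9, 88.5 and 87.6 CPM in aged donor hearts, which is a log2 fold change of 2.84 (SE 0.829, adjusted p = 0.0931 from edgeR). Il6 had no read in WT3 and WT13 and stood at 0.413 CPM in WT15 and at 3.09, 0.986 and 8.16 CPM in aged donor hearts. It could not have passed the filter without the aged donor hearts. Nor could Mmp9, named after its values were seen, which had 1 read in WT3 and is among the 5. Vegfa was lower, at 1035, 1216 and 166 CPM against 55.5, 113 and 229 CPM, with WT15 inside the range of the aged donor hearts. Without WT15, 11 of the target genes were past the limits and higher in place of 2, while the share over all genes tested went from 13.2% to 26.9%. WT15 had the neutrophil and macrophage sums given above, nearer to the aged donor hearts than those of WT3 and WT13, and their part in these values was not tested.

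Genes with antioxidant response elements, on which small Maf proteins bind with NRF2 or BACH1, were mostly higher. Of 7 genes tested, 6 were past the limits and higher, 0 were lower and 1 was not past them, with a median log2 fold change of 1.41, where 13.2% of all genes tested were higher and 19.0% lower. Hmox1, the heme oxygenase repressed by BACH1, was at 16.9, 19.4 and 258 CPM in the young group and at 1341, 534 and 1173 CPM in aged donor hearts. Slc7a11, the cystine carrier, was at 0.0605, 0.191 and 1.28 against 4.07, 2.99 and 13.8 CPM, with 1 and 3 reads in WT3 and WT13. Slc7a11 could be tested, and counted as higher, only because of the reads in aged donor hearts. Gclc, the catalytic subunit of the enzyme that starts glutathione synthesis, was at 25.6, 31.0 and 62.7 against 127, 86.7 and 104 CPM. Osgin1, an NRF2-dependent growth inhibitor, was at 7.20, 7.44 and 11.1 against 14.9, 23.4 and 32.6 CPM. The aged donor hearts lay above the young ones in 6 of the 7, these 4 among them. Over all genes tested, 21.0% did so and 41.6% did not overlap in either direction. In each of these 4 genes WT15 was the highest young donor heart. Without OT7, 3 genes of the list were past the limits and higher in place of 6. Over all genes tested, the count went from 1815 to 1238.

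**Figure D4:**
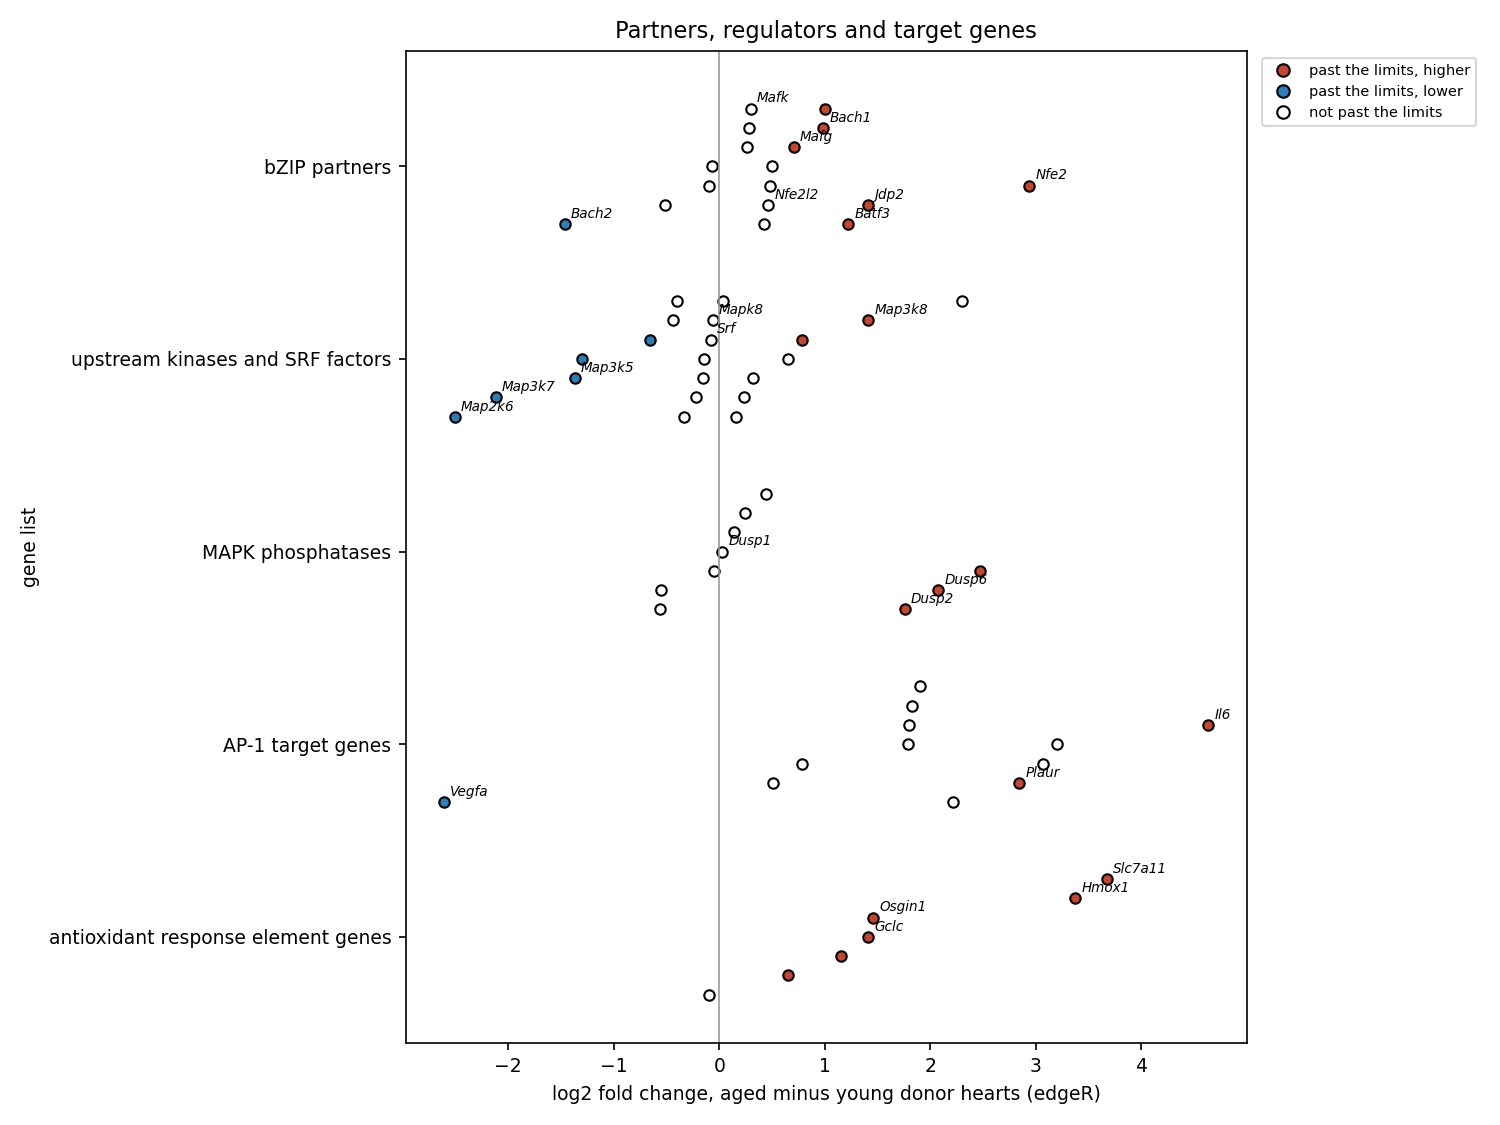
Log2 fold change of aged minus young donor hearts (edgeR) for the tested genes of 5 lists, 1 point per gene, with points past the limits of the study filled red (higher) or blue (lower) and vertical offsets only to separate points. Of the 7 antioxidant response element genes 6 are filled red, while 14 of the 21 kinase and serum response factor genes are open.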

How the data were processed

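RNA-Seq of 6 hearts, 3 from young and 3 from aged donors, was analysed. The authors deposited, per gene, raw read counts and FPKM values. The counts carry no normalization, and the deposited FPKM is the count over gene length and library total, which held within 0.1% for all but 1 of 133500 values and was not used further. The submitters' processing notes name Rnor_6.0, HISAT2 2.0.5, featureCounts 1.5.0-p3, StringTie 1.3.3b, DESeq2 1.16.1 and GATK 3.7, without their roles. Whether counting used strand is not given in the sources used here, so reads shared with overlapping or antisense genes are uncertain.

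Counts were filtered by filterByExpr, scaled by TMM and compared by the quasi-likelihood test of edgeR 4.0.16 without covariates, in R 4.3.3 with limma 3.58.1, over 13784 genes. Adjusted p-values are Benjamini-Hochberg values over all genes tested. Standard errors are the log2 fold change over the square root of F. Log2 CPM had a prior count of 2, and 3 reads correspond to 0.0985 to 0.191 CPM. An exact permutation test of 3 hearts against 3 cannot go below p = 0.1 (two-sided), so none was run. Alternatives were DESeq2 1.42.0, limma-voom, other scalings and filters, and leaving out each heart.

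The 10 genes and all lists were chosen with earlier results of these data known. Named were the 10 genes, in each list up to 4 genes with the largest log2 fold change past the limits and a mean of at least 1 CPM, 8 set beforehand (Nfe2l2, Bach1, Mafg, Mafk, Mapk8, Dusp1, Jdp2 and Srf), and the gene with the nearest profile. Promoters are from RefSeq on GRCr8, and coordinates were not converted between builds. A gene of the antioxidant list was left out of that list and is not reported here.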

Additional observations from a re-analysis of the deposited data

How the results depend on the processing

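The log2 fold changes of the 10 genes were positive in all 120 alternative values, of which 112 lay within the spread between replicates of the main value. The 8 others were Fosl2 (1.68), Jun (0.87) and Maff (2.57) with library totals alone and Fos, Fosl1, Junb, Atf3 and Batf without WT15. With library totals alone, 3147 genes were past the limits and higher and 1441 lower, as were 10 leucine zipper partners (higher) and 5 (higher) and 3 (lower) kinase and serum response factor genes. With DESeq2, 3592 genes and 6 of the 10 had an adjusted p under 0.05 and 5 AP-1 targets were past the limits and higher, and with limma-voom 6 AP-1 targets and 4 kinase genes were. With raw counts in place of levels per length, the Jun family took 86.8% in young and 72.9% in aged donor hearts. Leaving out each heart in turn gave 0 to 6815 genes and 0 to 9 of the 10 with an adjusted p under 0.05, the highest without WT15. It gave 817 to 3802 genes past the limits and higher and 1615 to 3412 lower, 2 to 11 AP-1 targets higher and 0 to 1 lower, 2 to 4 kinase genes higher and 2 to 5 lower, 0 to 1 phosphatases lower and 3 to 6 antioxidant genes higher. The cause of these changes was not tested. No paired analysis was possible because the groups share only the number 3, which names different animals. With 3 hearts a group and reads as few as 4 for Batf, differences within the spread of the young group were not detectable.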
